A study of Mus musculus with 23 samples.

Results

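The genes described here are nuclear-encoded subunits of the mitochondrial respiratory chain and ATP synthase in mouse heart, with the assembly factors that carry the same gene name stems. They were chosen by symbol, as Nduf, Uqcr, Cox followed by a digit, Atp5 or one of Sdha, Sdhb, Sdhc and Sdhd, without 4 pseudogene symbols ending in -ps. This gave 100 of the 43154 features in the files, and 98 of them reached 1 FPKM (fragments scaled to transcript length and to all mapped fragments) in at least 3 of the 23 libraries. The other two, Cox8c and Cox7b2, are isoforms of complex IV subunits known from testis. Cox8c was listed at 0 in all 23 libraries and Cox7b2 stayed at or below 0.198 FPKM. Of the members inside the limit, Cox6b2 lay nearest to it, with 15 of 23 libraries at 1 FPKM or more, and the other members passed in all 23. The choice used no measured difference between groups.

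The respiratory chain passes electrons from NADH through complex I and from succinate through complex II to ubiquinone, complex III and complex IV, where oxygen is reduced. Complexes I, III and IV pump protons across the inner mitochondrial membrane, and complex V, the ATP synthase, uses the returning protons to make ATP. Heart muscle is densely packed with mitochondria and draws most of its ATP from this chain. Some subunits of the chain are made inside the mitochondrion from mitochondrial DNA. By complex, the 98 members comprised 44 genes of complex I (7 core subunits, 29 accessory subunits and 8 assembly factors), 4 of complex II, 8 of complex III (3 core and 5 accessory), 26 of complex IV (16 subunits and 10 assembly factors) and 16 of complex V (5 of the F1 head, 10 of the Fo part and stalks, 1 assembly factor). Ndufa4 and Ndufa4l2, which carry complex I names, were placed with complex IV, where the Ndufa4 protein is found.

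The study measured RNA from hearts of C57BL/6 mice in 7 groups. CnATg animals carry a calcineurin transgene under an MHC (myosin heavy chain) promoter, which drives it in cardiomyocytes and gives a severely enlarged heart. WT (wild-type) animals served as controls, and JIB-04 is a small-molecule inhibitor of Jumonji histone demethylases dosed at 50 mg/kg on 3 days of each week. At postnatal day 45 there were 3 libraries for each genotype on vehicle and 3 for each on JIB-04, with treatment from week 4 where a start is given. At day 77 there were 3 libraries of WT JIB-04, 4 of CnATg vehicle and 4 of CnATg JIB-04, with treatment of the CnATg mice from week 5. The start week of the WT JIB-04 groups is not given, the series text describes WT mice on vehicle alone while 6 libraries are labelled WT JIB-04, and a WT vehicle group of day 77 was not analysed here. The labels do not say whether libraries are from different mice, so the p-values measure the spread between these libraries, which may be partly technical.

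The read depth of the libraries is unknown, since the files give no counts. Between 12384 and 12782 features reached 1 FPKM per library. Ppp3ca, the gene of the calcineurin catalytic subunit, ranged from 1415 to 1987 FPKM in CnATg hearts and from 23.6 to 29.0 FPKM in WT hearts. The cardiomyocyte markers summed to 14249.7 to 16481 FPKM in CnATg and 17861.9 to 20800.3 FPKM in WT libraries, with none of the 10 near 0. The library WT JIB-04 day 45 replicate 2 stood apart, with 123454 FPKM in 3 non-coding RNA features that held at most 7475 FPKM elsewhere. Of the mitochondrially encoded genes, mt-Atp6, mt-Co3 and mt-Atp8 had a value of 0 in the same 13 libraries (8 WT and 5 CnATg) and stood at 29985 FPKM or more in the other 10, so those 3 values were not used. Without them, mitochondrially encoded RNA made up 20.8 to 27.1% of all FPKM in WT and 15.5 to 17.4% in CnATg libraries. Counts below are on the deposited scale unless another is named.

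Respiratory chain subunits were lower in the transgenic heart in each complex. The 79 subunits together held 11.4 to 12.7% of nuclear protein-coding FPKM in the 9 WT libraries and 9.01 to 9.65% in the 14 CnATg libraries, with no overlap. In WT vehicle hearts of day 45 the share was 11.8% ± 0.383 (SD, n = 3), and in CnATg vehicle hearts of that age it was 9.37% ± 0.0934 (SD, n = 3). Complex I subunits fell from 3.48 to 3.92% in WT to 2.73 to 2.99% in CnATg libraries, complex IV subunits from 2.46 to 2.86% to 1.96 to 2.10%, and complex V subunits from 3.53 to 3.89% to 2.69 to 2.92%. The same separation of all WT from all CnATg libraries held for complex II, at 0.430 to 0.471% against 0.359 to 0.394%, and for complex III, at 1.48 to 1.66% against 1.19 to 1.29%. In bulk tissue, fewer cells of a type and less RNA per cell cannot be told apart.

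**Figure D1:**
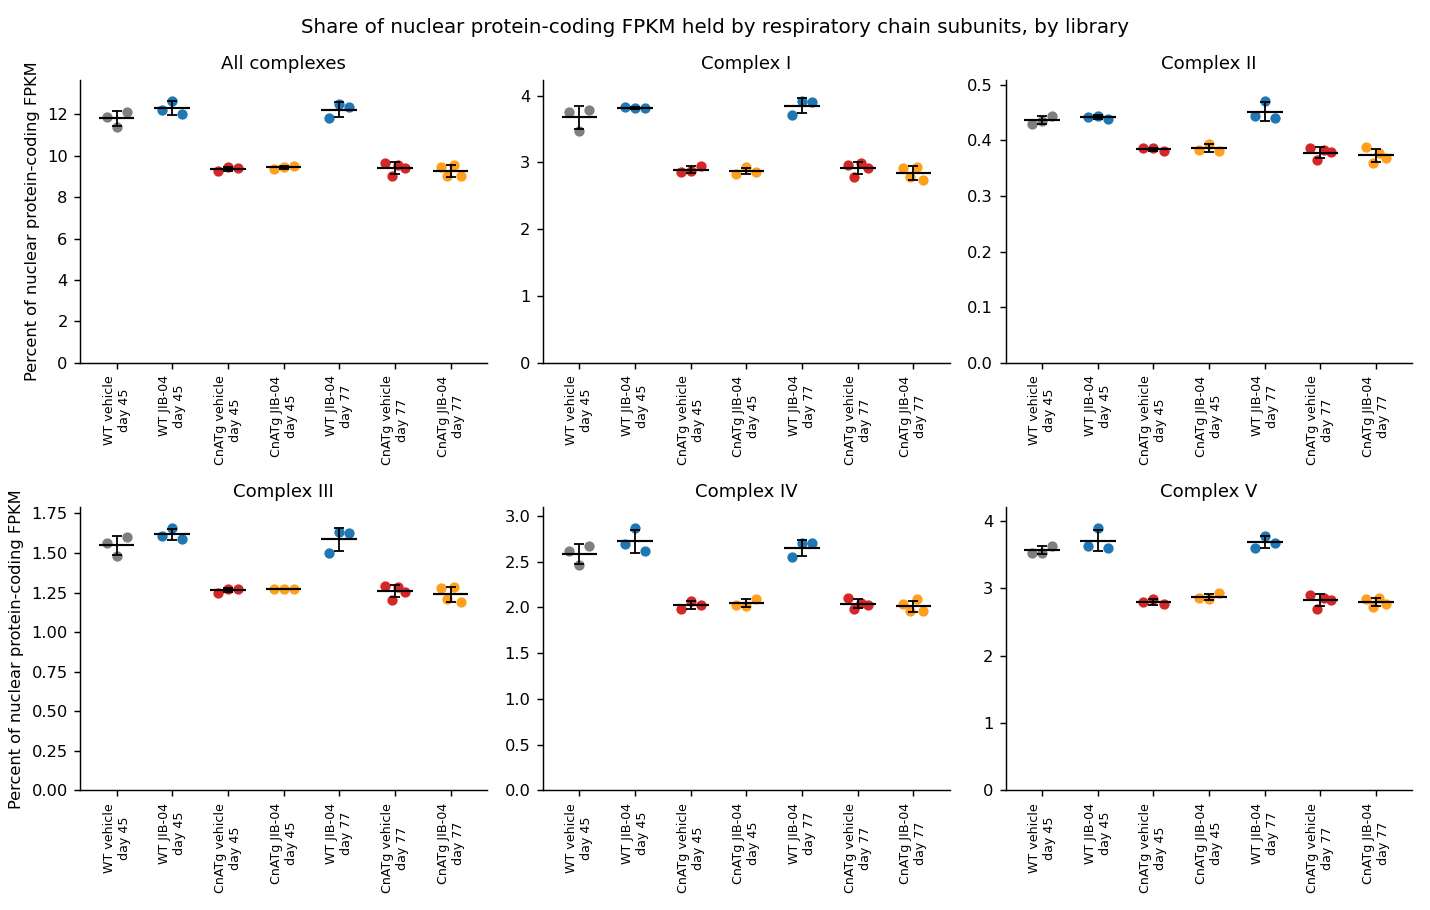
Share of nuclear protein-coding FPKM (percent, hemoglobin left out) held by the respiratory chain subunits, assembly factors left out, in each of 23 libraries (points), with the group mean and SD (black bars), for all complexes and for each complex. All 9 WT libraries, at 11.4 to 12.7% for all complexes, lie above all 14 CnATg libraries, at 9.01 to 9.65%.

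Each member was tested with limma on log2(FPKM + 1) across the 13713 features that reached 1 FPKM in at least 3 libraries, with Benjamini-Hochberg adjustment over all of them and a threshold of 0.05 on the adjusted p. In CnATg vehicle against WT vehicle at day 45, 66 of 98 members were lower and 3 higher, where 15.5% of all features were lower and 23% higher. The members' median log2 difference was -0.27, and that of all features was 0.07. Of features with a mean of 100 FPKM or more, a level that most members reach, 33.7% were lower, and 40.8% and 48.2% were lower in the JIB-04 comparisons of day 45 and day 77. Among the 79 subunits 63 were lower (median -0.30), and among the 19 assembly factors 3 were lower.

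The comparisons under JIB-04, at day 45 and day 77, gave more lower members. They compare none of the libraries of the vehicle comparison. Both comparisons of day 45 were fitted together, however, and share an estimate of the spread. In CnATg JIB-04 against WT JIB-04 at day 45, 78 of 98 members were lower and 1 higher (17.7% and 20.3% of all features), with a median of -0.38 against 0.02 for all features. At day 77 the comparison under JIB-04 gave 83 lower and 1 higher (21.8% and 19.4% of all features), with a median of -0.45 against -0.01. Subunits were lower in 73 of 79 cases at day 45 and 75 of 79 at day 77, and assembly factors in 5 and 8 of 19. A set of 65 members passed as lower in all 3 comparisons, 78 in both JIB-04 comparisons and 83 in at least 1. The share of all features that met these joint rules is not given. Without WT JIB-04 day 45 replicate 2, 75 members passed in the JIB-04 comparison of day 45.

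With mitochondrially encoded and hemoglobin genes left out and the remaining FPKM rescaled to a common total, the median of all features moved up by 0.09, 0.21 and 0.19 (log2) in the 3 comparisons. On that scale 32, 29 and 64 members were lower and 3, 4 and 6 higher, with 26 lower in all 3 comparisons, and the lower ones were subunits in 32, 29 and 62 cases. Of all features 9.51%, 7.51% and 11.8% were lower and 26.6%, 37.4% and 39.7% higher there. The non-coding RNA of WT JIB-04 day 45 replicate 2 is part of that total. On a scale chosen after seeing the data, with FPKM rescaled to the total of nuclear protein-coding features, 72, 78 and 79 members were lower and 3, 4 and 2 higher, where 16.5%, 15.9% and 16.9% of all features were lower. There 70 members were lower in all 3 comparisons, and 69, 73 and 74 of the lower ones were subunits. The share of all features lower in all 3 comparisons is not given for any scale. Relative to the median of all features the members' median was -0.34, -0.40 and -0.44 on the deposited scale, -0.32, -0.35 and -0.40 without mitochondrially encoded and hemoglobin genes, and -0.34, -0.39 and -0.42 on the nuclear protein-coding scale. The members' median was below 0 in these 3 comparisons under each scaling tried.

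Taking the libraries one by one, all 14 CnATg libraries lay below all 9 WT libraries in 54 of 98 members (55.1%, against 9.33% of all features). By complex this held for 25 of 44 members of complex I, 3 of 4 of complex II, 5 of 8 of complex III, 9 of 26 of complex IV and 12 of 16 of complex V. It held for 53 of 79 subunits and 1 of 19 assembly factors. Without mitochondrially encoded and hemoglobin genes it held for 15 members (15.3%, against 3.61% of all features), and on the nuclear protein-coding scale for 65 (66.3%, against 8.40%). All CnATg libraries lay above all WT libraries in 1 member, Cox19, where 11.1% of all features did so. The groups pooled in these counts differ in drug and age.

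**Figure D2:**
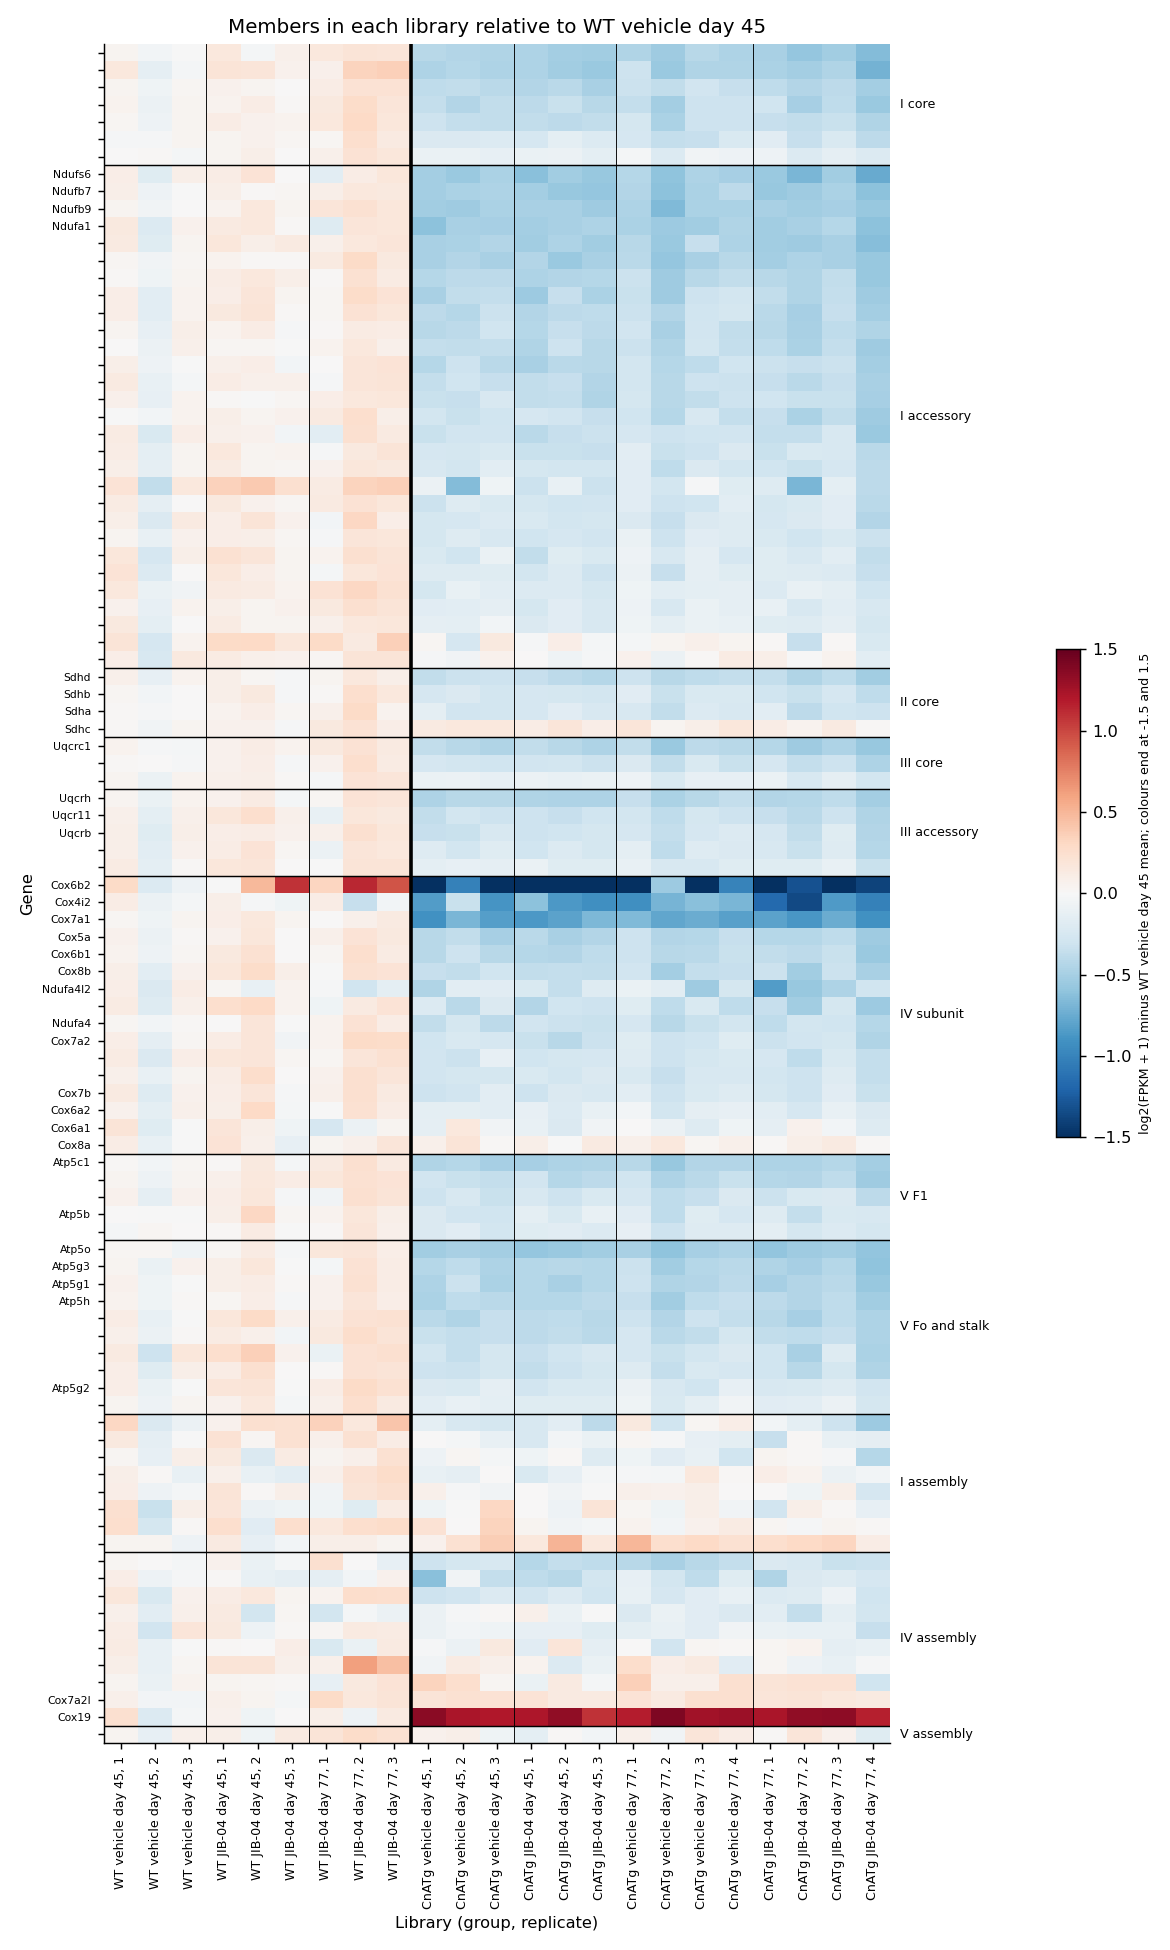
Log2(FPKM + 1) of the 98 members (rows, by complex and role, with the members named by rule labelled) in each of 23 libraries (columns), minus the mean of the 3 WT vehicle libraries of day 45, with red above and blue below that mean. The 14 columns right of the thick line are CnATg libraries, where most subunit rows are blue and Cox19 is red.

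Complex I takes electrons from NADH and is the largest complex of the chain. Its 7 nuclear-encoded core subunits, which carry the flavin and iron-sulfur clusters, were lower in all 3 comparisons, with medians of -0.38, -0.45 and -0.61. Ndufs7, an iron-sulfur core subunit, was at 489, 398 and 431 FPKM in the WT vehicle libraries of day 45 and at 317, 326 and 316 FPKM in the CnATg vehicle libraries. Its log2 difference was -0.45 ± 0.07 (SE, adjusted p = 0.00038, limma), and it was -0.79 under JIB-04 at day 77. Ndufs7 was picked out after its values were seen.

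Of the 29 accessory subunits of complex I, 22, 27 and 28 were lower and none higher. The 4 with the largest difference under vehicle were Ndufa1, Ndufs6, Ndufb9 and Ndufb7. Ndufa1, an X-linked membrane-arm subunit needed for assembly of the complex, was at 552, 433 and 523 FPKM in WT vehicle and 325, 356 and 355 FPKM in CnATg vehicle libraries of day 45. The groups did not overlap, and the log2 difference was -0.53 ± 0.08 (SE, adjusted p = 0.000362, limma). Ndufs6, a zinc-binding subunit added late in assembly, differed by -0.52, -0.68 and -0.67 in the 3 comparisons. Ndufb9 had the highest mean level in complex I, at 816 to 993 FPKM (median 874) in WT and 534 to 612 FPKM (median 599) in CnATg libraries, and its differences were -0.51, -0.58 and -0.71. Ndufb7, at 488 to 575 FPKM in WT and 337 to 392 FPKM in CnATg libraries, differed by -0.49, -0.60 and -0.68. Ndufb3, at 158 to 214 FPKM in WT and 168 to 204 FPKM in CnATg libraries, was the one accessory subunit past the threshold in none of the 3.

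Complex II, succinate dehydrogenase, has 4 subunits, all encoded in the nucleus, and is also an enzyme of the citric acid cycle. Sdha, the flavoprotein, was at 495, 482 and 489 FPKM in WT vehicle and 440, 402 and 405 FPKM in CnATg vehicle libraries of day 45, and its log2 differences were -0.23, -0.28 and -0.43. Sdhb, the iron-sulfur subunit, differed by -0.25, -0.34 and -0.46. Sdhd, a membrane anchor, differed by -0.33, -0.42 and -0.52, and all 14 CnATg libraries (242 to 281 FPKM) lay below all WT libraries (318 to 389 FPKM). Sdhc, the other membrane anchor, did not follow them. It was at 355, 338 and 361 FPKM in WT vehicle and 386, 391 and 391 FPKM in CnATg vehicle libraries, higher by 0.15 ± 0.04 (SE, adjusted p = 0.0203, limma), a call that was lost with median-ratio scaling (0.08). Under JIB-04 its differences were 0.09 (95% interval -0.00468 to 0.19, adjusted p = 0.125, limma) at day 45 and -0.07 (-0.19 to 0.04, adjusted p = 0.295, limma) at day 77. The last value turned above 0 under 3 of the scalings tried, and the first passed the threshold under 3.

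Complex III passes electrons from ubiquinol to cytochrome c. Of the 8 subunits chosen by symbol 6 were lower under vehicle and 8 in both JIB-04 comparisons. The gene of cytochrome c1, a further nuclear-encoded subunit, has another name stem and is not among them. Uqcrc1, a core subunit, was at 619, 591 and 586 FPKM in WT vehicle and 462, 448 and 439 FPKM in CnATg vehicle libraries, with differences of -0.41, -0.50 and -0.66. Uqcrh, the hinge protein that contacts cytochrome c1, differed by -0.43, -0.51 and -0.58. The small subunits Uqcr11, with the highest mean level of the complex, and Uqcrb differed by -0.32 and -0.31 under vehicle. In each of these 4 genes all 14 CnATg libraries lay below all 9 WT libraries, as with Uqcr11 at 753 to 861 FPKM against 929 to 1224 FPKM. The Rieske protein gene Uqcrfs1 was -0.10 under vehicle, short of the threshold, and -0.16 and -0.31 under JIB-04, where it passed.

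Complex V is a rotary enzyme with an F1 head, which makes ATP, and an Fo part in the membrane. All 5 genes of the F1 head were lower in the 3 comparisons, and of the 10 genes of the Fo part and stalks 8, 10 and 10 were lower. Atp5b, the catalytic beta subunit, had the highest mean level of all members of the complex, with 2637, 2597 and 2613 FPKM in WT vehicle and 2259, 2140 and 2121 FPKM in CnATg vehicle libraries of day 45. Its log2 differences were -0.27, -0.30 and -0.36. Atp5c1, the gamma subunit of the central stalk, had larger ones of -0.46, -0.51 and -0.64. Atp5o, a stalk subunit, went from 725 to 862 FPKM in WT to 498 to 549 FPKM in CnATg libraries, with -0.50 ± 0.05 (SE, adjusted p = 1.12e-05, limma) under vehicle. The deposited locus of Atp5o spans 247290 bases and reaches far beyond the gene in GENCODE M21, so other transcripts could add to its value. Atp5h, also a stalk subunit, differed by -0.42, -0.45 and -0.55.

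The c ring of the Fo part is made of 1 mature protein encoded by 3 genes that differ in their import sequence. Atp5g1 and Atp5g3 were the more abundant, at 1175 to 1439 and 1209 to 1498 FPKM in WT libraries, and both differed by -0.42 under vehicle. Atp5g2, at 298 to 388 FPKM in WT libraries, differed by -0.19 ± 0.06 (SE, adjusted p = 0.035, limma), then -0.37 and -0.44 under JIB-04. Its libraries overlapped at 1 edge, since the highest CnATg library had 299 FPKM. The difference between these 3 genes was not tested.

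**Figure D3:**
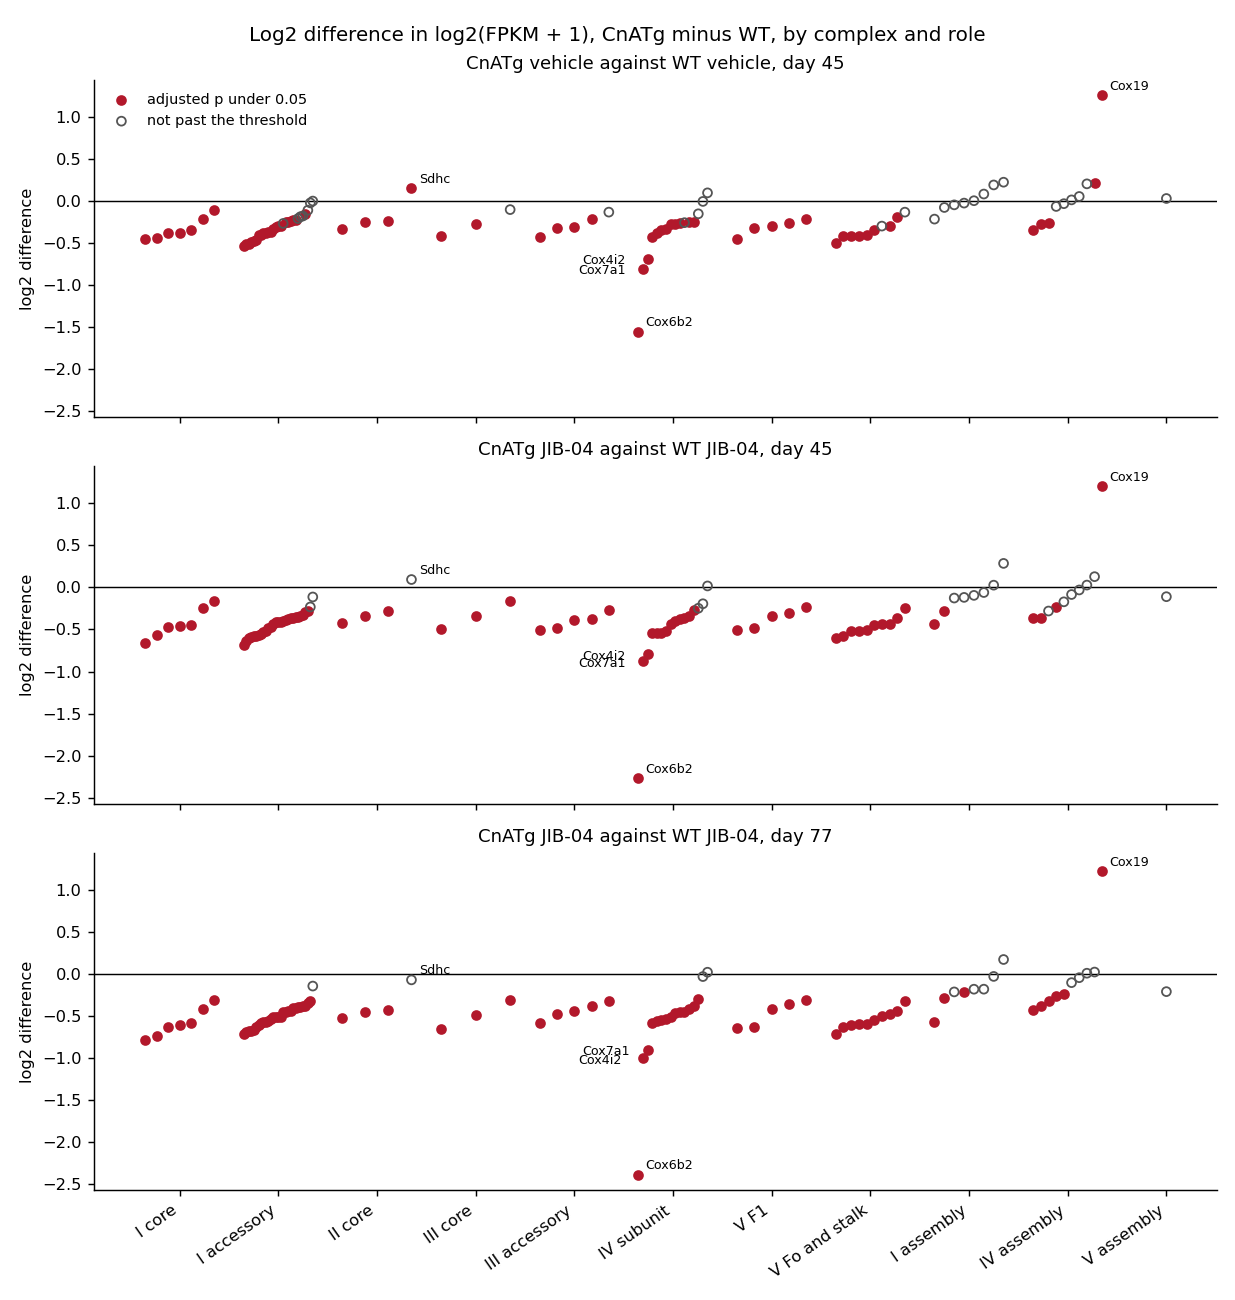
Log2 difference (CnATg minus WT, in log2(FPKM + 1)) of each of the 98 members by complex and role in 3 genotype comparisons, with filled red points for members past the threshold and open points for the rest. Subunits lie mostly below 0, Cox6b2 is lowest and Cox19 highest in each panel, and the median over the 19 assembly factors is 0.00, -0.11 and -0.21 in the 3 comparisons.

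Complex IV, cytochrome c oxidase, reduces oxygen. It is the complex with most tissue isoforms, and among its 16 subunits 12, 13 and 14 were lower and none higher. Cox5a, present in all tissues, was at 980, 879 and 949 FPKM in WT vehicle and 699, 722 and 663 FPKM in CnATg vehicle libraries, and differed by -0.43, -0.52 and -0.58. Cox6b1, which faces cytochrome c, differed by -0.38, -0.54 and -0.55, and Ndufa4 by -0.34, -0.38 and -0.47. Cox7b, at 351 to 475 FPKM in WT and 319 to 362 FPKM in CnATg libraries, differed by -0.25, -0.34 and -0.42, and its groups overlapped in the vehicle comparison.

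Heart and skeletal muscle use muscle forms of 3 complex IV subunits in place of ubiquitous forms: Cox6a2 for Cox6a1, Cox7a1 for Cox7a2 and Cox8b for Cox8a. The muscle form Cox7a1 was the most separated of these genes. It was at 1238, 1157 and 1248 FPKM in WT vehicle, 1304, 1351 and 1249 in WT JIB-04 and 648, 752 and 682 in CnATg vehicle libraries of day 45. It was at 667, 698 and 761 FPKM in CnATg JIB-04 libraries of day 45. At day 77 WT JIB-04 libraries had 1221, 1279 and 1333 FPKM, CnATg vehicle libraries 764, 707, 722 and 688, and CnATg JIB-04 libraries 696, 664, 724 and 645. No CnATg library reached the lowest WT library. The ubiquitous form Cox7a2 differed less, by -0.26, -0.43 and -0.53, at 220 to 295 FPKM in WT and 177 to 213 FPKM in CnATg libraries.

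The Cox8 pair differed further. Cox8b, the muscle form, was at 1042, 881 and 1030 FPKM in WT vehicle and 775, 758 and 799 FPKM in CnATg vehicle libraries of day 45, with differences of -0.34, -0.54 and -0.56. Cox8a, the ubiquitous form, lay at 297 to 370 FPKM in WT and 320 to 368 FPKM in CnATg libraries, which overlap. Its differences of 0.10 (95% interval -0.09 to 0.28), 0.02 (-0.17 to 0.21) and -0.03 (-0.15 to 0.08) did not pass, and their sign changed with the scaling or a left-out library at both JIB-04 ages. Cox6a2, with the highest mean level of complex IV, was at 1283, 1106 and 1287 FPKM in WT vehicle and 1105, 1100 and 1091 FPKM in CnATg vehicle libraries. Its differences were -0.15 (adjusted p = 0.166, limma), -0.27 and -0.29, and the latter 2 passed but no longer did so when mitochondrial and hemoglobin genes were removed (-0.01 and -0.06) or with quantile normalization (-0.06 and -0.05). Cox6a1, at 170 to 232 FPKM in WT and 175 to 227 FPKM in CnATg libraries, differed by -0.01, -0.20 and 0.02, none past the threshold and with signs that change with the setting.

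The balance of each pair was taken as the log2 ratio of the muscle form to the ubiquitous form within a library, which does not depend on scaling apart from the pseudocount. Genotype labels were permuted within day 45 vehicle, day 45 JIB-04 and day 77 JIB-04, with 14000 arrangements (exact two-sided permutation test, adjusted over the 3 pairs). The Cox7a1 over Cox7a2 ratio was 2.11 to 2.43 in WT and 1.69 to 1.98 in CnATg libraries, with a mean difference of -0.46 (exact p = 7.14e-05, the smallest these permutations can give, adjusted p = 0.000107). The Cox8b over Cox8a ratio was 1.55 to 1.82 in WT and 0.94 to 1.29 in CnATg libraries, with a mean difference of -0.51 and the same exact p-values. The Cox6a2 over Cox6a1 ratio overlapped, at 2.46 to 2.90 in WT and 2.27 to 2.64 in CnATg libraries, with a mean difference of -0.18 (exact p = 0.00871, adjusted p = 0.00871). In WT vehicle libraries of day 45 the Cox7a1 ratio was 2.33 ± 0.07 (SD, n = 3) and in CnATg vehicle libraries 1.78 ± 0.08 (SD, n = 3). The difference in the Cox6a2 ratio was -0.15 under vehicle at day 45, -0.07 under JIB-04 at day 45 and -0.31 under JIB-04 at day 77.

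**Figure D4:**
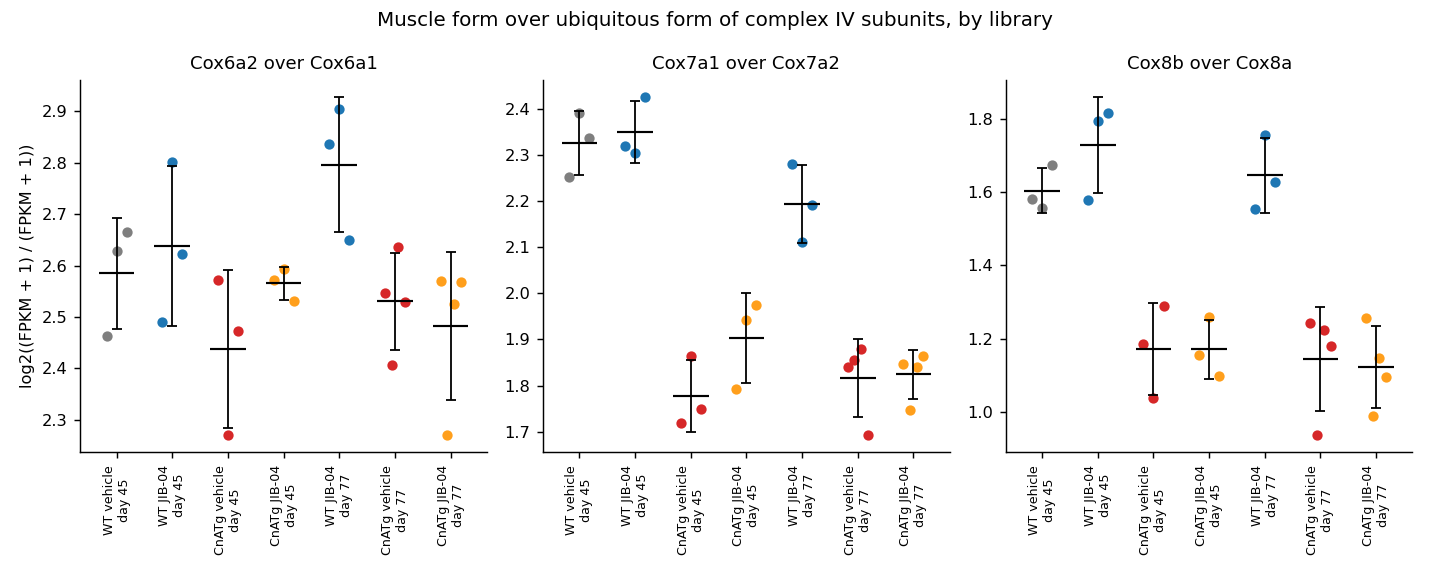
Log2 ratio of the muscle form to the ubiquitous form of 3 complex IV subunit pairs in each library (points) by group, with the group mean and SD (black bars); the axes do not start at 0. For Cox7a1 over Cox7a2 and Cox8b over Cox8a all 14 CnATg points lie below all 9 WT points, and for Cox6a2 over Cox6a1 they overlap.

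The less abundant isoforms of complex IV that were listed above 1 FPKM differed as well. Cox6b2, known from testis, was at 4.09 to 11.9 FPKM in WT and 0.465 to 3.04 FPKM in CnATg libraries, and differed by -1.55, -2.27 and -2.39. Cox4i2, an oxygen-responsive isoform known from lung and from pericytes, was at 15.3, 13.2 and 13.8 FPKM in WT vehicle and 7.44, 10.98 and 7.19 FPKM in CnATg vehicle libraries, and differed by -0.69, -0.79 and -1.004. Ndufa4l2, a hypoxia-responsive relative of Ndufa4 that is also known from pericytes, differed by -0.26, -0.25 and -0.39, and the last passed (adjusted p = 0.0378, limma). Markers of smooth muscle and pericytes were split, some lower and some higher. On the lower side, Rgs5, a pericyte marker, fell from 139 ± 6.55 to 76.2 ± 5.75 FPKM (SD, n = 3) under vehicle. There Kcnj8 and Pdgfrb differed by -0.91 and -0.52. Of the 9 smooth muscle and pericyte markers 2, 3 and 2 were higher and 3, 4 and 4 lower, with Acta2 and Cspg4 higher in each comparison. Of all features 23%, 20.3% and 19.4% were higher and 15.5%, 17.7% and 21.8% lower. The summed level of the 9 markers was 266 to 405 FPKM in WT and 380 to 678 FPKM in CnATg libraries. None of the 9 was near 0, and their part in the result was not tested.

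Promoter sequences are shown for 6 members because they differ in behaviour and in the letters near their start: Sdhd, which was lower in all 3 comparisons, the muscle forms Cox7a1 and Cox8b, the ubiquitous forms Cox6a1 and Cox8a, and Cox19. Each runs 5′ to 3′ from 250 bases before to 50 bases after the gene's start (RefSeq, GRCm38.p6). Capitals mark exact matches, on either strand, to motifs of regulators known for respiratory chain genes: GCGCA and GCGC with any 1 base between them (NRF1), CCGGAAG (ETS factors such as GABP), AAGATGGC (YY1) and TCAAGGTCA (estrogen-related receptors). An NRF1 match can read the same on both strands, and no 2 different motifs overlap in the 6 windows.
Sdhd (chr9:50603800-50604099, minus strand): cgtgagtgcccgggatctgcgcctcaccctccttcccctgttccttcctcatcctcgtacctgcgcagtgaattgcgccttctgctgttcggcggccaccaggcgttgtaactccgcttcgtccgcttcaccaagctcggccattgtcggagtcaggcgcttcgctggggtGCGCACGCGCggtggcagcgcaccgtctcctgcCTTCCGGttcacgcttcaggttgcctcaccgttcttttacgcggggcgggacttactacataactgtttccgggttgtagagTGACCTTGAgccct
Cox7a1 (chr7:30183921-30184220, plus strand): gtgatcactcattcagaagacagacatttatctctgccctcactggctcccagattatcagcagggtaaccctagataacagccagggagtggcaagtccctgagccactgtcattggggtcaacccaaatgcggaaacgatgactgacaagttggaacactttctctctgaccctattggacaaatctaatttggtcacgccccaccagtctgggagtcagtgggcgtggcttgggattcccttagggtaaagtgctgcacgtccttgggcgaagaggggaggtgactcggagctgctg
Cox8b (chr7:140900397-140900696, minus strand): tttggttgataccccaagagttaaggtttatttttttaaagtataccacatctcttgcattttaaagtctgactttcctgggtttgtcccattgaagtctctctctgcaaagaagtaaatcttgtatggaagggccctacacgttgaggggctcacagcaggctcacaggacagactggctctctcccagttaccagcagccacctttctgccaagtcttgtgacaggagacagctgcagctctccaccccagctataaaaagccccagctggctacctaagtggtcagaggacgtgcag
Cox6a1 (chr5:115348909-115349208, minus strand): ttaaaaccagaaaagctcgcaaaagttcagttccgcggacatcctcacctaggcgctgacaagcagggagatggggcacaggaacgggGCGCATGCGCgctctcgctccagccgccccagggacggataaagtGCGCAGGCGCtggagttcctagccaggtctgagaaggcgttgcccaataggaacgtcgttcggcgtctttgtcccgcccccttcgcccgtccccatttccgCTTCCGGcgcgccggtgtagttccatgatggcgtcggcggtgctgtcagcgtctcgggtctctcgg
Cox8a (chr19:7217567-7217866, minus strand): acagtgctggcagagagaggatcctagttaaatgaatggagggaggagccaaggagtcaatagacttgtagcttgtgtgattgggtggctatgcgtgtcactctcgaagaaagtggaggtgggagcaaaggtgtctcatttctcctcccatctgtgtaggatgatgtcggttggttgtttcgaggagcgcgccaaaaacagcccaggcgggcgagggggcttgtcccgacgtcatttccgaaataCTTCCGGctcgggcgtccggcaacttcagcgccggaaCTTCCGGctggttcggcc
Cox19 (chr5:139345117-139345416, minus strand): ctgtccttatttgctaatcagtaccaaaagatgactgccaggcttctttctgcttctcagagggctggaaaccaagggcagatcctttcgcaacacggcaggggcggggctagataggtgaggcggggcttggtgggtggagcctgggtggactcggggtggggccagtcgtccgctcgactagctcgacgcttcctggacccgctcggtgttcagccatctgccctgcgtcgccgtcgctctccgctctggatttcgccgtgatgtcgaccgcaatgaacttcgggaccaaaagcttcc

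The Sdhd window holds 1 match each to the NRF1, ETS and estrogen-related receptor motifs. Cox6a1 has NRF1 matches and an ETS match and Cox8a has 2 ETS matches. The windows of Cox7a1, Cox8b and Cox19 hold no match to any of the motifs. The windows shown were picked because their genes differ in behaviour and in these letters, so this contrast follows from the choice. The share of all members without any match is not given. A window was found for 82 of the 98 members. The NRF1 motif was in 19 of them (23.2%, against 5.19% of 27025 genes with a window), the ETS motif in 22 (26.8% against 9.93%), the YY1 motif in 13 (15.9% against 3.19%) and the estrogen-related receptor motif in 2 (2.44% against 0.466%). Among 17491 protein-coding genes the shares were 7.17%, 12.9%, 3.57% and 0.377%, and the median GC content was 59.0% in members and 56.3% in these genes. A match is a description of the letters and not evidence of binding.

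The 19 members classed as assembly factors help to build or join the complexes. In the 3 genotype comparisons 3, 5 and 8 of them were lower, against 15.5%, 17.7% and 21.8% of all features. Another 2, 1 and 1 were higher, against 23%, 20.3% and 19.4%. The 19 factors had median differences of 0.00, -0.11 and -0.21 (log2), beside -0.30, -0.42 and -0.51 for the 79 subunits. The gap between these sets was not tested. Of the 8 for complex I, 0, 2 and 3 were lower and 0 higher, and of the 10 for complex IV, 3, 3 and 5 were lower and 2, 1 and 1 higher. Cox19, a copper-binding protein of the intermembrane space needed for complex IV assembly, was higher. It was at 16.4, 11.8 and 13.5 FPKM in WT vehicle, 14.4, 13.2 and 13.9 in WT JIB-04, 36.7, 33.4 and 32.9 in CnATg vehicle and 33.3, 36.1 and 30.3 in CnATg JIB-04 libraries of day 45. At day 77 WT JIB-04 libraries had 14.7, 13.0 and 15.2 FPKM, CnATg vehicle libraries 32.4, 38.0, 34.4 and 34.95, and CnATg JIB-04 libraries 33.6, 36.1, 36.4 and 32.0. Every CnATg library lay above every WT library. The log2 differences were 1.26 ± 0.10 (SE, adjusted p = 4.18e-06, limma), 1.21 and 1.22, and they stayed between 1.17 and 1.44 under the scalings tried.

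Cox7a2l, which helps join complexes III and IV into supercomplexes, was higher under vehicle by 0.21 ± 0.05 (SE, adjusted p = 0.00509, limma) at 194 to 211 FPKM in WT and 228 to 234 FPKM in CnATg vehicle libraries. Under JIB-04 it was 0.13 at day 45, past the threshold under 3 of the scalings tried, and -0.05 at day 77, above 0 under 3 of them. The remaining members lower in none of the 3 comparisons were Atp5s, Cox11, Cox15, Cox18, Ndufaf1, Ndufaf2, Ndufaf3, Ndufaf4 and Ndufaf7, all assembly factors, besides Cox6a1, Cox8a, Ndufb3, Sdhc, Cox7a2l and Cox19. The library kit did not mark strand, and 37 of the 100 members share exonic bases with another gene in GENCODE M21, 32 of them with one on the opposite strand. This leaves Cox20 (91.1% of its exonic bases shared with Hnrnpu), Ndufaf2 (65.6%), Cox16 (56.8%) and Cox11 (48.3%) uncertain. Subunits were more abundant than assembly factors, and across all 98 members the vehicle difference was more negative at higher mean FPKM (Spearman rho = -0.40). Within the 79 subunits rho was -0.11. These genes share libraries and are not independent.

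JIB-04 moved no member past the threshold. In CnATg JIB-04 against CnATg vehicle 0 of 98 members passed by limma at day 45 (0.00729% of all features) and 0 at day 77 (0.0%), and 0 passed in WT JIB-04 against WT vehicle at day 45 (0.0%). At an unadjusted p under 0.05 there were 2, 3 and 5 members, where all features gave 4.4%, 7.42% and 4.4%. The members' median differences were -0.03, -0.06 and 0.07, and the third turned to -0.06 when mitochondrial and hemoglobin genes were removed and to -0.02 with quantile normalization. The 95% intervals lay within ±0.5 for 96, 94 and 95 of 98 members, with a median half-width of 0.15, 0.14 and 0.15. Cox7a1, for instance, was at 648, 752 and 682 FPKM without and 667, 698 and 761 FPKM with the drug in CnATg hearts of day 45. The difference of the drug effects between genotypes at day 45 had 0 of 98 members past the threshold (0.00729% of all features), 2 at an unadjusted p under 0.05 (3.78% of all features), and a median of -0.11 that turned to 0.04 on the rescaled values. Its intervals were wider (median half-width 0.21).

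**Figure D5:**
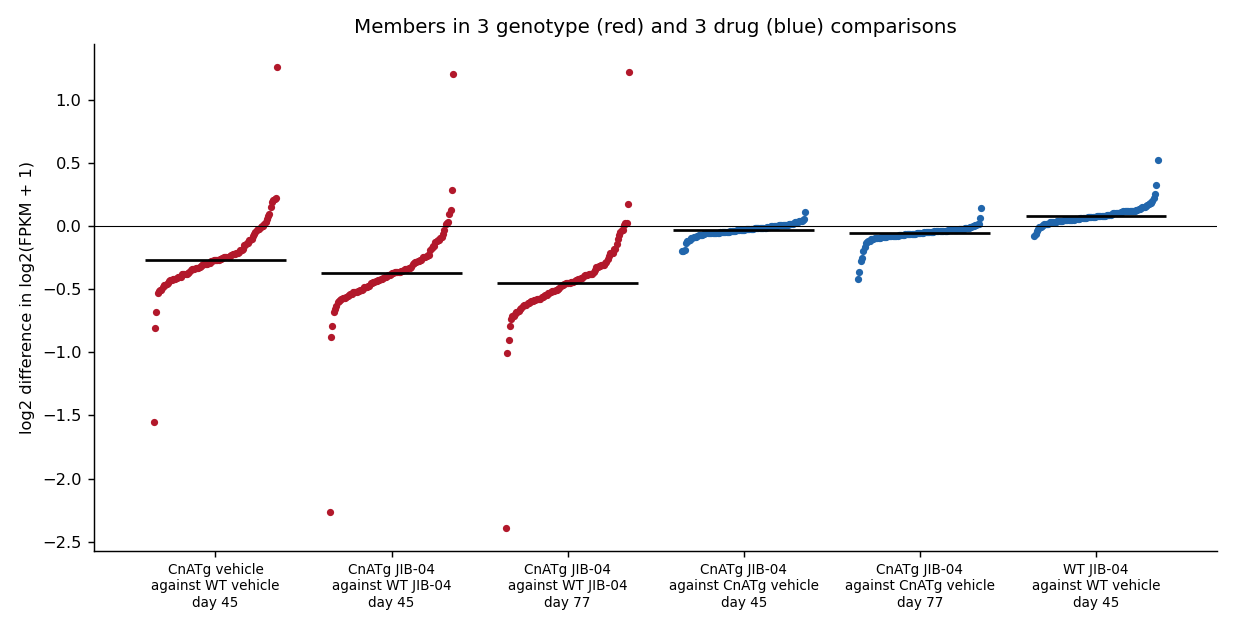
Log2 differences of the 98 members in 3 genotype comparisons (red) and 3 drug comparisons (blue), sorted within each, with the median as a black line. Genotype medians are -0.27, -0.38 and -0.45, and drug medians are -0.03, -0.06 and 0.07; genotype and drug comparisons share libraries.

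Age moved no member past the threshold either, though age differs together with the start of treatment in CnATg mice. Day 77 against day 45 gave 0 of 98 by limma in CnATg vehicle (0.0365% of all features), CnATg JIB-04 (0.0365%) and WT JIB-04 (0.328%), with 1, 4 and 16 members at an unadjusted p under 0.05 (7.27%, 7.85% and 15.2% of all features). The median differences were 0.01, -0.02 and 0.06. In WT JIB-04 hearts Cox7a2l came nearest, higher by 0.18 ± 0.04 at day 77 (SE, adjusted p = 0.0645, limma). The genotype difference under JIB-04 was more negative at day 77 in 84 of 98 members and in 59.3% of all features, with a median change of -0.08 over the members and -0.04 over all features. The members' median change was -0.10 without mitochondrially encoded and hemoglobin genes, -0.05 with median-ratio scaling, -0.03 after rescaling to nuclear protein-coding features and -0.02 with quantile normalization. None of the 98 passed in that test by limma (0.00729% of all features), and 11 did at an unadjusted p under 0.05, where 6.91% of all features did. The drug effect in CnATg gave no member past the threshold between ages (0 of 98, 0.0% of all features, with 1 at an unadjusted p under 0.05 against 3.38%).

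Other genes of the pathway are given for the 3 genotype comparisons in the order vehicle day 45, JIB-04 day 45 and JIB-04 day 77. Of all features 15.5%, 17.7% and 21.8% were lower and 23%, 20.3% and 19.4% higher in that order. Of the 10 usable mitochondrially encoded genes 10, 10 and 10 were lower, with medians of -0.65, -0.63 and -0.58. Among 16 electron carrier and electron transfer flavoprotein genes 5, 8 and 10 were lower and 1 higher in each. Etfb, which passes electrons from fatty acid oxidation, differed by -0.71 under vehicle, and Adck3, a ubiquinone synthesis kinase-like protein, by 0.54. Among 14 citric acid cycle genes 8, 9 and 12 were lower and 1, 1 and 0 higher, with Suclg1 at -0.46 and Idh3b at -0.40 under vehicle. Atpif1, the inhibitor protein of ATP synthase, fell from 272 ± 12.6 to 154 ± 6.24 FPKM (SD, n = 3) under vehicle, a difference of -0.82, and the uncoupling protein genes Ucp2 and Ucp3 differed by -0.76 and -1.04. Ucp1 was below the level limit.

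Among 37 other assembly factors and translation activators 4, 7 and 13 were lower, against 15.5%, 17.7% and 21.8% of all features. A further 5, 4 and 1 were higher, against 23%, 20.3% and 19.4%. Cmc2 (-0.54) and Ecsit (-0.44) fell most under vehicle, and Atpaf1 (0.52), a chaperone of the F1 head, and Sco1 (0.47), a copper carrier for complex IV, rose most. Among 29 import and outer membrane genes 9, 13 and 18 were lower and 1, 0 and 2 higher, with Chchd3 and Mfn1 at -0.48. All these values are on the deposited scale, and those of these lists on other scales are not given. Leaving out mitochondrially encoded and hemoglobin genes, as above, moved the median of all features up by 0.09, 0.21 and 0.19.

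Of the 20 regulators of respiratory chain genes 4, 5 and 4 were lower, against 15.5%, 17.7% and 21.8% of all features. A further 2, 2 and 2 were higher, against 23%, 20.3% and 19.4%. Esrra, an estrogen-related receptor that acts with the coactivator Ppargc1a on these genes, was at 93.0 to 107 FPKM in WT and 66.3 to 78.9 FPKM in CnATg libraries, and differed by -0.35, -0.40 and -0.46. Mef2a, a muscle transcription factor, differed by -0.52, -0.51 and -0.49, and Mef2d by 0.20, 0.17 and 0.21, all past the threshold. Ppargc1a varied widely, at 20.8 to 97.5 FPKM in WT and 24.5 to 49.2 FPKM in CnATg libraries, and its differences of 0.27, 0.12 and -0.62 did not pass (adjusted p = 0.351, 0.709 and 0.139, limma). Nrf1 at -0.34 and Gabpa at -0.28 passed in the JIB-04 comparison of day 45 alone, as did Ppara at 0.47. Gabpa shares 397 exonic bases with the member Atp5j on the opposite strand. Since the kit did not mark strand, Atp5j reads could add to the Gabpa value, which is uncertain. Mef2c passed in both JIB-04 comparisons (-0.445 and -0.39), Esrrb (-0.25) and Tfb2m (0.35) under vehicle, Esrrg (0.31) at day 77 and Ppard under vehicle (-0.33) and at day 77 (-0.28). Gabpb1, Nrip1, Polrmt, Ppargc1b, Pprc1, Tfam, Tfb1m and Yy1 passed in none.

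Markers of other cell types moved with genotype as well. In the 3 comparisons 15.5%, 17.7% and 21.8% of all features were lower and 23%, 20.3% and 19.4% higher. All 12 endothelial markers tested were lower under vehicle, and 10 and 11 under JIB-04, with summed levels of 434 to 524 FPKM in WT and 230 to 359 FPKM in CnATg libraries. Of 10 fibroblast markers 7, 7 and 5 were higher and 1 lower in each, summing to 362 to 455 FPKM in WT and 475 to 705 FPKM in CnATg libraries. Among 10 cardiomyocyte markers 5 were lower and 2 higher in each comparison. Of 9 macrophage markers 1, 1 and 0 were higher and 1, 1 and 2 lower. Of 3 B cell markers 3, 3 and 1 were lower, of 4 atrial markers 2, 1 and 2 were higher, and none of 5 erythroid markers passed. The T cell and adipocyte lists had 1 tested gene each, Trac and Fabp4, lower in 1 and 3 of the comparisons. Of the fast skeletal muscle list only Ckm and Tnni2 were tested, and both were lower in all 3. So few genes cannot tell whether those cell types were present. Plin1, Lep and Ucp1 of the adipocyte list and Myh2 and Myh4 of the skeletal muscle list were below 0.1 FPKM in every library. No tested gene could be, given the level limit for testing. The part of these markers in the members' differences was not tested.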

How the data were processed

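RNA-seq was done on 23 mouse heart libraries in 7 groups. The authors extracted RNA with Trizol and used a non-directional mRNA kit, per the labels' protocols. The submitters' processing notes name STAR 2.7.1a, Picard, GATK 4.1.2, Cufflinks 2.2.1 and the GRCm38 build. The authors deposited log2 FPKM values for 43154 features per library, per the file headers. No value was below 0 and many were exactly 0, so they were read as log2(FPKM + 1), with a pseudocount of 1. How reads shared between gene copies were handled is not given in the sources used here.

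Features at 1 FPKM or more in at least 3 libraries (13713) were tested on the deposited log2 scale with limma 3.58.1 in R 4.3.3, with Benjamini-Hochberg adjustment over all of them and a threshold of 0.05. The 4 groups of day 45 were fitted together, as were the 3 groups of day 77, and all 23 libraries for comparisons across ages, without a replicate block. Isoform ratios were compared by an exact permutation test. The fit was tested on simulated data. Alternatives were other scalings, filters, pseudocounts and sets of samples, a replicate block, and leaving out each library.

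The members and gene lists were chosen with earlier results of these data known. Members were named by rule: in each complex the largest differences past the threshold in the vehicle comparison in both directions, the highest mean level, all of complex II, the isoform families of complexes IV and V, and all regulators; others named were picked after their values were seen. One member of the cytochrome c oxidase family is not reported here.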

Additional observations from a re-analysis of the deposited data

Results flagged for a closer look

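In groups of 4 libraries, 88 values were examined for a library far from the rest of its group, and 2 stood out. Chance alone flags about 1 in 20 such groups. Ndufb9 was at 534.224 FPKM in CnATg vehicle day 77 replicate 2, below the other 3 libraries of that group at 606.609 to 612.109 FPKM. The log2 ratio of Cox6a2 to Cox6a1 was 2.269 in CnATg JIB-04 day 77 replicate 2, below the others of its group at 2.526 to 2.569. The cause was not tested in either case.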

How the results depend on the processing

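When mitochondrially encoded and hemoglobin genes were removed before rescaling, members past the threshold went from 69 to 35 in the vehicle comparison of day 45 and from 79 to 33 in the JIB-04 comparison of that day. Leaving out 1 library at a time gave 57 to 78, 75 to 81 and 81 to 85 members in the 3 genotype comparisons, and 0 in the drug, interaction and age comparisons. The vehicle count was 78 without WT vehicle day 45 replicate 2. All other counts of members past the threshold stayed within 1.5 times the main count under the alternatives tried.

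Same-numbered libraries were not treated as pairs in the main fit, since no label ties them. Their residual correlations were -0.317 to 0.364. In WT JIB-04 against WT vehicle at day 45 they were 0.178, 0.042 and 0.205. The highest with another number there were -0.046, -0.005 and -0.009. Whether equal numbers share a batch was not tested. With a replicate block 62, 78 and 82 members passed in the genotype comparisons and 0 in the others.

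Of 2210 alternative values of single genes 2109 kept their direction and side of the threshold, 66 lost and 15 gained a call, and 20 changed sign. With mitochondrial and hemoglobin genes removed, Cox6a1 turned to 0.101 under vehicle and 0.0576 under JIB-04 at day 45. At day 77 under JIB-04, Sdhc turned to 0.160, Cox7a2l to 0.186 and Cox8a to 0.199 on that scale, to 0.144, 0.0445 and 0.138 with quantile normalization, and to 0.0229, 0.0485 and 0.0621 after rescaling to nuclear protein-coding features. Cox8a at day 45 under JIB-04 turned to -0.00554 with median-ratio scaling. With 1 library left out, Cox6a1 ranged from -0.10 to 0.0895 under vehicle and from -0.0595 to 0.091 under JIB-04 at day 77, and Cox8a from -0.069 to 0.0895 at day 45 and from -0.0623 to 0.0108 at day 77 under JIB-04. The cause was not tested. The isoform ratios kept direction and call in all 60 alternatives. Depth is unknown and limits low genes such as Cox6b2 most.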

Other observations

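Ndufab1, the acyl carrier protein of complex I, had single low libraries in 3 groups, which was noticed after its values were seen. It was at 297 FPKM in CnATg vehicle day 45 replicate 2 and at 290 FPKM in CnATg JIB-04 day 77 replicate 2, while the other CnATg libraries lay between 356 and 464 FPKM. In WT vehicle day 45 replicate 2 it was at 363 FPKM, and the other WT libraries lay between 511 and 614 FPKM.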
